A study of Mus musculus with 2 samples.

Results

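Fatty acid uptake and oxidation were followed through 40 genes chosen by name: the carriers that bring fatty acids into the cell, the enzymes that activate and oxidise them, and the transcriptional regulators of these genes. Total RNA came from diaphragm skeletal muscle of C57/BL6 mouse embryos at stage E18.5 (late gestation), with 1 array for the RP58-/- genotype and 1 array for the RP58+/+ genotype. RP58, now named Zbtb18, is a zinc finger repressor of transcription. The sources used here give neither the extent of the deletion nor the number of embryos per sample. Each gene was read from the probe set with the highest mean over both arrays among those annotated to that gene alone. In this way 38 of the 40 genes were read, among 18193 genes on the arrays. Acsl1 and Cpt1b were not read, because neither had a probe set of its own in the annotation, and the only probe set that named Cpt1b also named other genes.

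Long fatty acids reach muscle from lipoproteins, whose triglycerides lipoprotein lipase splits at the capillary wall. CD36 and the fatty acid transport proteins carry them across the membrane, fatty acid binding proteins hold them in the cytosol, and acyl-CoA synthetases trap them as CoA esters. The carnitine shuttle brings these esters into the mitochondrial matrix, where successive rounds of dehydrogenation, hydration, dehydrogenation and thiolysis release acetyl-CoA. Several steps have separate forms in muscle and in liver, and the pathway becomes prominent in muscle around birth, when milk fat replaces glucose as the main fuel.

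The deposited values are log2 signals, and every difference given is the RP58-/- array minus the RP58+/+ array. With 1 array per genotype there was no spread between embryos, no test was possible, and no p-value is given. A gene is called lower or higher when its difference reached 1.5-fold, or 0.58 on the log2 scale. Different probe sets of a gene disagreed with a pooled SD of 0.28 over 5675 genes, which is the only repeat measurement on these arrays and does not cover embryos or dissection. The floor for dim probe sets was the 40th percentile of mean signal (log2 5.52), and the probe sets chosen for all 38 genes read lay above it.

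Over 45101 probe sets the correlation between the arrays was r = 0.985. The labels could not be checked by the targeted gene: the probe set of Zbtb18 had a log2 signal of 9.21 on the RP58-/- array, against 8.91 on the RP58+/+ array, and the sources used here do not say where it lies relative to the deletion. Xist, which is expressed in females, had a signal of 6.96 on the RP58-/- array, against 11.47 on the RP58+/+ array. Genotype and sex therefore cannot be told apart. All 24 poly-A control probe sets were lower on the RP58-/- array, with a median difference of -0.75, and all differences here are relative to the median gene (-0.0032 over 14093 genes above the floor) rather than to these controls. Markers of muscle fibres were lower on the RP58-/- array for 15 of 16 genes (median -1.63), and hepatocyte markers were higher for 12 of 18 genes (median 0.84). In dissected tissue, fewer cells of a type and less RNA per cell cannot be told apart.

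Of the 38 genes read, 5 were lower on the RP58-/- array and 3 were higher. Among all genes above the floor, 6.51% were lower and 3.83% were higher by the same rule. The members' shares were 13.2% lower and 7.89% higher, which is a difference of a few genes in each direction. At 2-fold, Fabp3 was the 1 gene lower and Slc27a2 the 1 gene higher, beside 2.31% lower and 0.908% higher among all genes. The members' differences ran from -1.57 to 1.18, with 19 below 0 and 19 above 0 (50.4% of all genes were below 0), and the median of 0.0059 was close to that of all genes. The 5 lower genes were Fabp3, Acacb, Esrra, Cd36 and Ppargc1a, and the 3 higher genes were Slc27a2, Slc27a5 and Fabp1. Only 3 of these 8 genes (Cd36, Ppargc1a and Fabp1) had more than 1 probe set above the floor, each with probe sets of 1 sign. Of the other 30 genes, 16 differed by less than the pooled probe set SD.

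**Figure D1:**
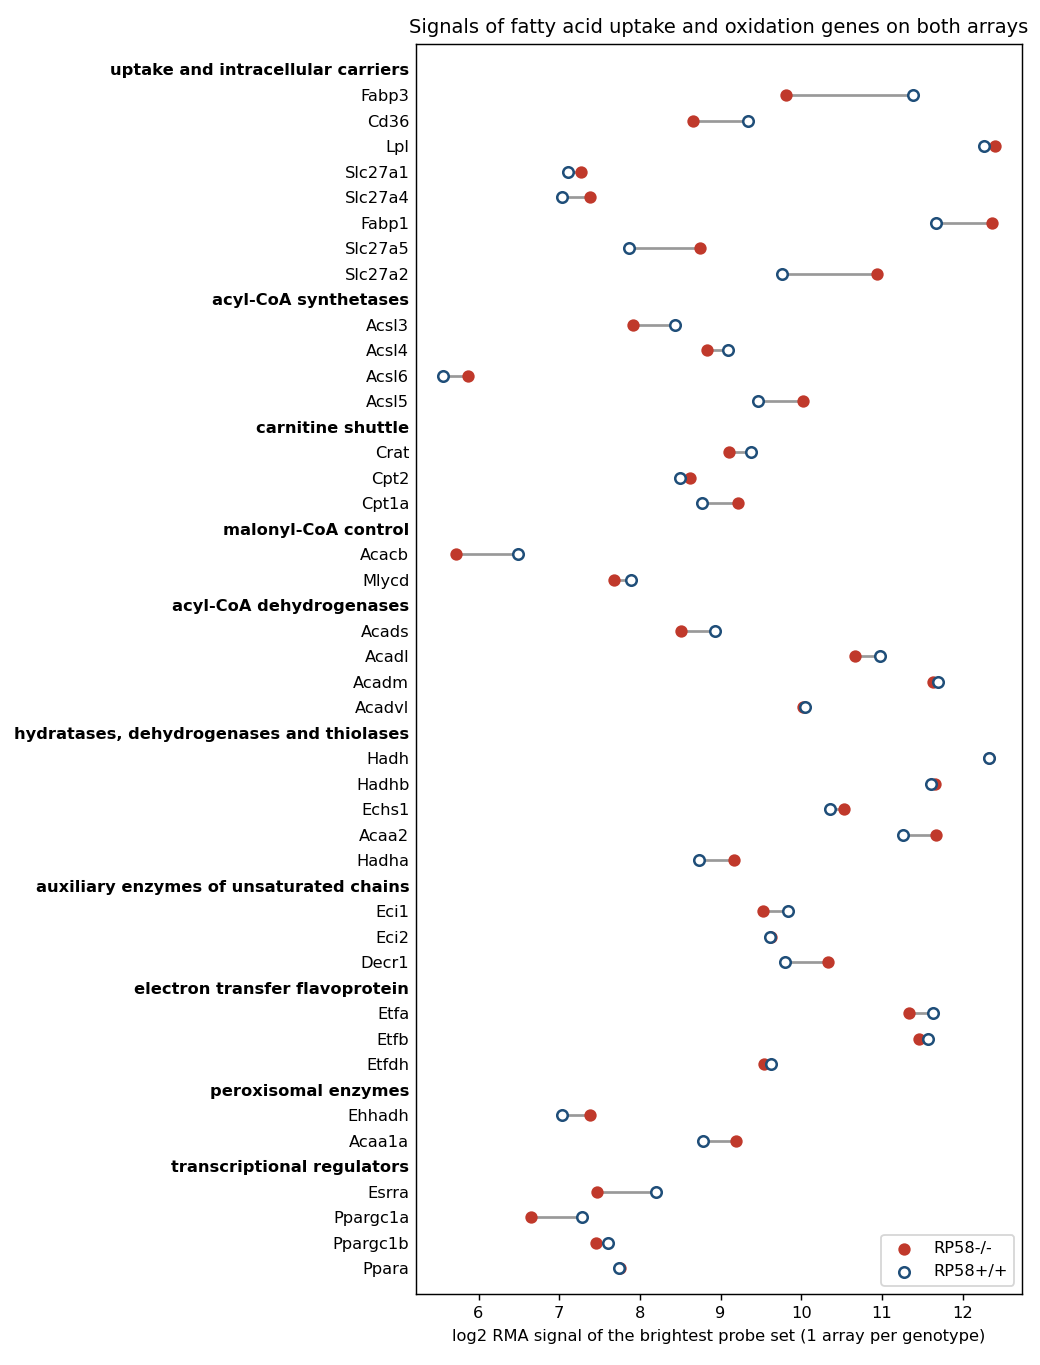
Log2 RMA signal (x axis) of the 38 genes read, on the RP58-/- array (filled red) and the RP58+/+ array (open blue), ordered by role in the pathway; 1 point is 1 array. The widest gaps are those of Fabp3 (9.81 on the RP58-/- array, 11.38 on the RP58+/+ array) and Slc27a2 (10.94 on the RP58-/- array, 9.76 on the RP58+/+ array), which point in opposite directions; signals of different genes are not comparable.

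The sequences just upstream of 4 uptake genes are shown because these genes gave the largest differences in each direction among carriers with a RefSeq promoter window: Fabp3 and Cd36 were lower on the RP58-/- array, and Slc27a2 and Fabp1 were higher. Each sequence holds the 250 bases before the annotated start, 5′ to 3′ on the gene's own strand, from RefSeq (assembly GRCm38.p6). Capitals mark matches, on either strand, to AGGTCA, the core motif recognised by nuclear receptors such as PPAR alpha and ERR alpha, and to a pair of AGGNCA with 1 base between them, a loose form of the direct repeat that PPAR alpha and its partner bind. The positions are chr4:130308488-130308737 (plus strand) for Fabp3, chr5:17835897-17836146 (minus strand) for Cd36, chr2:126552774-126553023 (plus strand) for Slc27a2, and chr6:71199629-71199878 (plus strand) for Fabp1.
Fabp3: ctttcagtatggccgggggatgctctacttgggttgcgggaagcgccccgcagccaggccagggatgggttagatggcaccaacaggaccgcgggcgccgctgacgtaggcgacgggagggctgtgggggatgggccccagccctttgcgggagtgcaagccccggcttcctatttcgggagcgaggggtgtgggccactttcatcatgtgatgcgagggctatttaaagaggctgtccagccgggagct
Cd36: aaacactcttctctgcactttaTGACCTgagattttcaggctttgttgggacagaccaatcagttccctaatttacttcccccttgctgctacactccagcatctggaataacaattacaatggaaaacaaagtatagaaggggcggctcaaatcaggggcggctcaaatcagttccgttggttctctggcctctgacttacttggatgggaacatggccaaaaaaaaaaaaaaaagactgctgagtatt
Slc27a2: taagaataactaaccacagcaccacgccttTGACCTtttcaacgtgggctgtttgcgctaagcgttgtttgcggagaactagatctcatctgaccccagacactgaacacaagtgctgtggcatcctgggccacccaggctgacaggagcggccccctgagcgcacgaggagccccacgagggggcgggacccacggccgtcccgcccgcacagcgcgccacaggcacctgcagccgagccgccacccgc
Fabp1: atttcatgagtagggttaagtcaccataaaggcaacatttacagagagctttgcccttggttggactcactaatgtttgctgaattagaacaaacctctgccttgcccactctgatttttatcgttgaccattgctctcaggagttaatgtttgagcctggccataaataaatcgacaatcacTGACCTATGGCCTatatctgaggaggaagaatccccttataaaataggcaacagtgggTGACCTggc

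The Fabp1 window held AGGTCA at 2 places, the first of them overlapping its match to the repeat. The Cd36 and Slc27a2 windows held AGGTCA at 1 place each, and the Fabp3 window had no match to these letters. Windows were available for 33 of the 40 genes. AGGTCA was present in windows of 8 of these genes (Acadm, Acadvl, Acsl6, Cd36, Cpt1a, Echs1, Fabp1 and Slc27a2). Counted by window, it was in 8 of 38 member windows and in 14% of all 32851 promoter windows of the same length. The repeat was present in Fabp1 alone among the members (1 of 38 windows), and in 0.338% of all windows. ACATCTG, the core of the sequence that RP58 is known to bind, was present in 1 of 38 member windows, that of Acsl6, and in 3.71% of all windows. These are matches of letters and do not show binding.

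The largest difference of the members in each direction was that of an uptake or carrier gene, Fabp3 below 0 and Slc27a2 above 0. Fabp3, the fatty acid binding protein of heart and skeletal muscle, had a signal of 9.81 on the RP58-/- array and 11.38 on the RP58+/+ array, 2.97-fold lower (-1.57), and only 0.915% of all genes above the floor were as low or lower. A second Fabp3 probe set lay under the floor on both arrays (4.65 on the RP58-/- array, 4.81 on the RP58+/+ array), and averaging it in left a difference of -0.86. Cd36, the membrane receptor for long-chain fatty acids, had 8.66 on the RP58-/- array and 9.34 on the RP58+/+ array, 1.60-fold lower. Its other probe sets differed by -0.93 and -1.12, so all 3 were lower. CD36 is also made by capillary endothelium, adipocytes and macrophages. Endothelial markers were lower for 1 of 9 genes (median -0.18; summed linear signal 2251 on the RP58-/- array and 2197 on the RP58+/+ array), and macrophage markers were higher for 1 of 9 (median 0.25; 11982 on the RP58-/- array and 9469 on the RP58+/+ array). Without the brightest gene, the endothelial sum was 1663 on the RP58-/- array and 1733 on the RP58+/+ array. The macrophage sum was then 8162 on the RP58-/- array and 6953 on the RP58+/+ array. Of 7 white adipocyte markers read, Adipoq, Cidec, Lep and Pparg lay under the floor. Of the 3 others Cebpa was higher (0.76), Retn was at 0.04 and Fabp4 at -0.48 (median 0.04). Their summed signal, mostly that of Fabp4, was 3673 on the RP58-/- array and 4635 on the RP58+/+ array, and 702 on the RP58-/- array and 493 on the RP58+/+ array without Fabp4. The part of these cell types in the Cd36 difference was not tested.

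The remaining uptake genes were higher or near 0. Slc27a2, a fatty acid transport protein and very-long-chain acyl-CoA synthetase of liver and kidney, had a signal of 10.94 on the RP58-/- array and 9.76 on the RP58+/+ array, 2.26-fold higher (1.18). Slc27a5, the bile acid-CoA synthetase of liver, had 8.74 on the RP58-/- array and 7.87 on the RP58+/+ array, 1.83-fold higher (0.87). Fabp1, the liver fatty acid binding protein, had 12.37 on the RP58-/- array and 11.67 on the RP58+/+ array (0.70), and its other probe set, with 11.67 on the RP58-/- array and 10.27 on the RP58+/+ array, differed by 1.41. These 3 genes are best known from liver. In contrast, Slc27a1, the transport protein of muscle and fat, was at 0.16 on the brightest and -0.04 on the other of its probe sets, and the widely expressed Slc27a4 by 0.35. Lpl, lipoprotein lipase, had 12.40 on the RP58-/- array and 12.26 on the RP58+/+ array, a difference of 0.14 that its other probe set repeated (0.15).

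None of the 4 acyl-CoA synthetases of the Acsl family read passed the rule on its brightest probe set, and Acsl1 was not read. Acsl5, a form of intestine and liver, was just inside it at 0.56 (10.02 on the RP58-/- array, 9.46 on the RP58+/+ array). Acsl3, a form found on lipid droplets and the endoplasmic reticulum, was at -0.53 (7.91 on the RP58-/- array, 8.44 on the RP58+/+ array), while another of its probe sets had 6.49 on the RP58-/- array and 7.95 on the RP58+/+ array, a difference of -1.46. The size of the Acsl3 difference thus depended on the probe set, whereas its direction did not. Acsl4, which prefers arachidonic acid, differed by -0.26, and Acsl6, a form of brain and muscle with a signal near the floor, by 0.31.

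Genes of the carnitine shuttle were within the rule on their brightest probe sets. Cpt1a, the carnitine palmitoyltransferase of liver and fetal tissues that commits acyl groups to oxidation, had 9.22 on the RP58-/- array and 8.77 on the RP58+/+ array (0.44), and its other probe sets differed by 0.69 and 0.75, past the rule. Cpt2, which returns acyl groups to CoA in the matrix, differed by 0.12. Crat, which buffers acetyl groups as acetylcarnitine, was at -0.27 on the brightest of its 3 probe sets and at -0.82 and -0.04 on the others. The muscle enzyme of the first step, CPT1B, could not be set beside Cpt1a for want of a probe set of its own.

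Both members that make or remove malonyl-CoA, the inhibitor of the first shuttle step, were below 0. Acacb, the acetyl-CoA carboxylase that makes malonyl-CoA at the mitochondrial surface of oxidative tissues, had 5.73 on the RP58-/- array and 6.49 on the RP58+/+ array, 1.70-fold lower (-0.77) at a signal close to the floor. Mlycd, the decarboxylase that removes malonyl-CoA, had 7.68 on the RP58-/- array and 7.89 on the RP58+/+ array (-0.21). The other acetyl-CoA carboxylase gene, Acaca, read with the fatty acid synthesis genes, had 7.97 on the RP58-/- array and 7.78 on the RP58+/+ array (0.19).

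Inside the mitochondrion, the differences were small. The 4 acyl-CoA dehydrogenases, which take the first step of each round for chains of different length, were all below 0 and within the rule. Acads, the short-chain enzyme, had 8.50 on the RP58-/- array and 8.94 on the RP58+/+ array (-0.43), Acadl, the long-chain enzyme, differed by -0.31, Acadm, the medium-chain enzyme, by -0.06, and Acadvl, the very-long-chain enzyme, by -0.016. The electron transfer flavoprotein subunits Etfa (-0.30) and Etfb (-0.11), which accept the electrons of these dehydrogenases, and Etfdh (-0.09), which passes them to ubiquinone, were below 0 as well.

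On their brightest probe sets, 4 of the 5 genes of the later steps were above 0 and 0 passed the rule. Hadha, the trifunctional protein subunit that carries hydratase and long-chain dehydrogenase activity, had 9.16 on the RP58-/- array and 8.74 on the RP58+/+ array (0.42), and Hadhb, its thiolase subunit, differed by 0.05 on the brightest probe set and by 0.27 and 0.44 on the others. Acaa2, the mitochondrial thiolase of medium chains, had 11.67 on the RP58-/- array and 11.26 on the RP58+/+ array (0.41), with other probe sets at 0.36 and 0.76. Echs1, the short-chain hydratase, differed by 0.18, and Hadh, the short-chain hydroxyacyl-CoA dehydrogenase, by -0.0022, with probe sets on both sides of 0. Among the enzymes that prepare unsaturated chains, the reductase gene Decr1 was at 0.54 (10.33 on the RP58-/- array, 9.79 on the RP58+/+ array) and at 0.10 on another probe set, the isomerase gene Eci1 at -0.31 and Eci2 at 0.014.

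**Figure D2:**
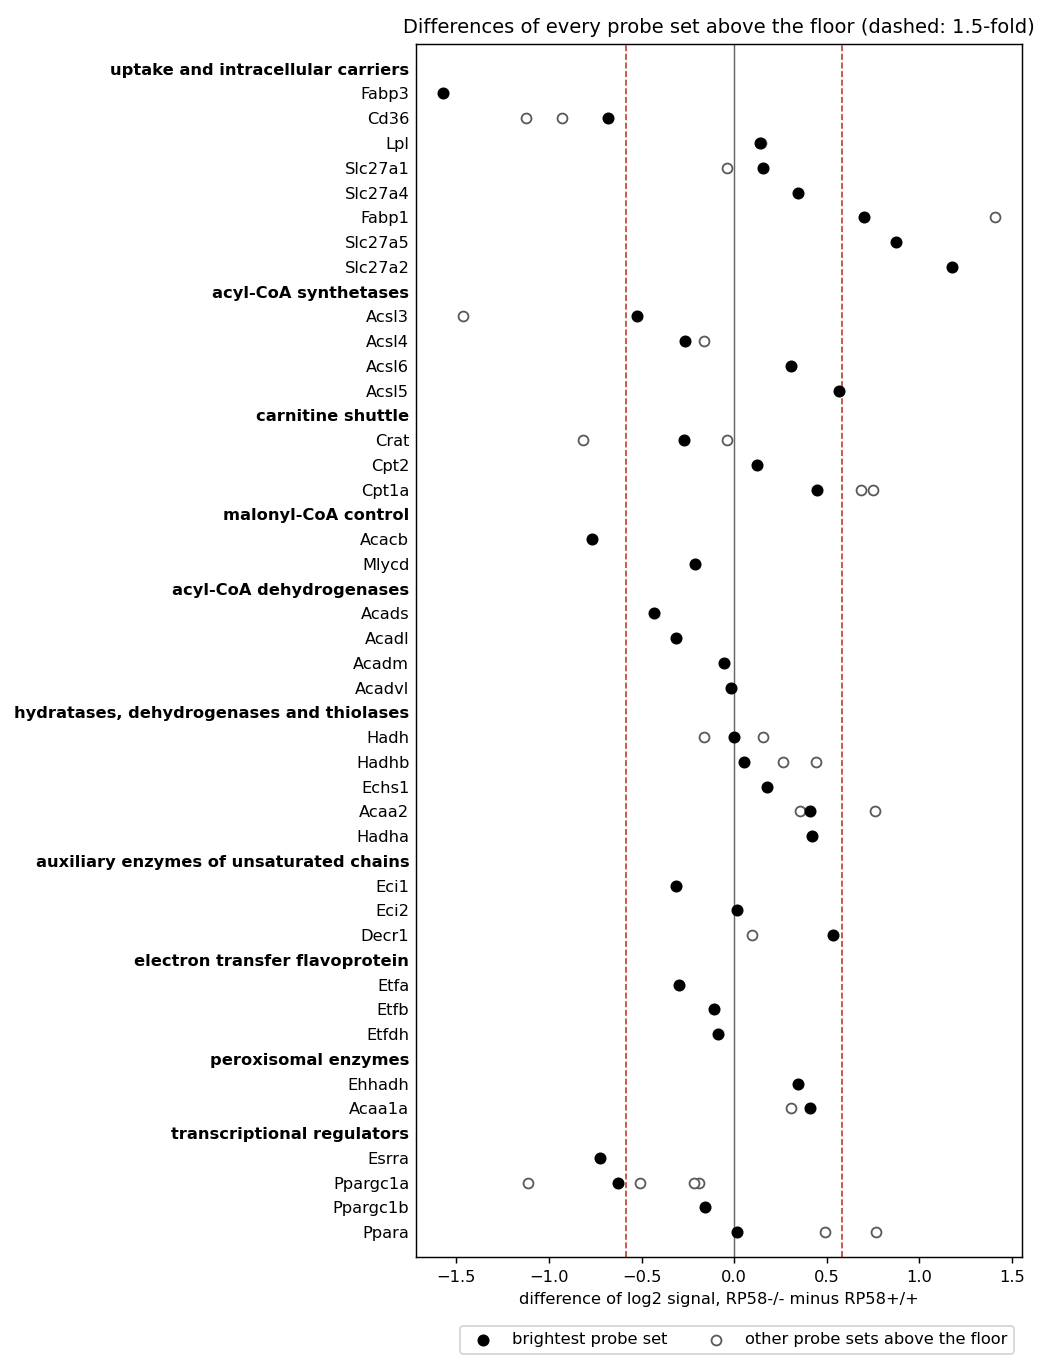
Difference of log2 signal, RP58-/- minus RP58+/+ (x axis), for each probe set above the floor of the 38 genes; filled points are the brightest probe set of a gene, open points its other probe sets, and dashed lines mark 1.5-fold. The 3 probe sets of Cd36 and the 5 of Ppargc1a all lie below 0, while those of Hadh and Slc27a1 lie on both sides.

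The 18 mitochondrial enzymes read ran from the carnitine shuttle to the electron transfer flavoprotein. On their brightest probe sets the median difference was -0.0089, with 10 below 0, 8 above 0 and 0 past the rule. Other probe sets of Cpt1a (0.69 and 0.75), Acaa2 (0.76) and Crat (-0.82) were past it. Genes of the mitochondrial pathways that burn the product were set beside the 18 enzymes. Of 12 citric acid cycle genes, 7 were lower and 0 higher (median -0.73), with 11 below 0 and Suclg2 at 0.36. Idh3a, a subunit of isocitrate dehydrogenase, had 10.21 on the RP58-/- array and 11.98 on the RP58+/+ array (-1.77), Sucla2, a succinyl-CoA ligase subunit, differed by -1.05 (-0.35 when its probe sets were averaged, inside the rule) and Cs, citrate synthase, by -0.98. Of 29 oxidative phosphorylation genes, 14 were lower and all were below 0 (median -0.56), with the muscle forms Cox7a1 (-2.00) and Cox6a2 (-1.13) and the complex I subunit Ndufa5 (-1.04) in front. Outside the mitochondrion, 4 of 9 glycolytic genes read were lower (Pgam2 -2.13, Eno3 -2.05 and Pfkm -1.63 in front). All 9 were below 0, and the smallest difference was -0.05. Eno3 was also counted among the muscle fibre markers. The range of the 18 enzymes, -0.43 to 0.54, overlapped that of oxidative phosphorylation, -2.00 to -0.25, in its lower part. The grouping of the 18 enzymes was made after their values were seen, and the difference between these pathways was not tested. The 18 include Cpt1a, counted below as a liver form, and lack the muscle enzyme Cpt1b, which was not read. On the RP58-/- array muscle fibre markers were lower for 15 of 16 genes and hepatocyte markers higher for 12 of 18. The part of muscle and liver cells in these medians was not tested.

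Both members grouped as peroxisomal were above 0 and within the rule. Acaa1a, a peroxisomal thiolase, had 9.19 on the RP58-/- array and 8.78 on the RP58+/+ array (0.41). Ehhadh, the peroxisomal bifunctional enzyme, had 7.38 on the RP58-/- array and 7.04 on the RP58+/+ array (0.34). Acaa1a has a near-identical copy, Acaa1b, so its signal may be shared. Of 14 further genes of peroxisomal oxidation above the floor, 6 were higher, 0 were lower and all were above 0 (median 0.53). Hacl1, which cleaves branched acyl-CoAs, had 8.82 on the RP58-/- array and 7.81 on the RP58+/+ array (1.02), Acaa1b differed by 0.97 and Phyh, which starts the oxidation of phytanic acid, by 0.77. Peroxisomal oxidation is prominent in liver, 12 of 18 hepatocyte markers were higher on the same array, and their part in these differences was not tested.

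Among the regulators, Esrra and Ppargc1a were lower. Esrra encodes ERR alpha, the nuclear receptor that drives mitochondrial genes. Its signal was 7.47 on the RP58-/- array and 8.20 on the RP58+/+ array, 1.65-fold lower (-0.72). A second Esrra probe set, under the floor, was at 0.35. Ppargc1a encodes the coactivator PGC-1 alpha, and had 6.65 on the RP58-/- array and 7.28 on the RP58+/+ array, 1.55-fold lower (-0.63). All 5 of its probe sets were below 0, from -1.11 to -0.19. Its relative Ppargc1b differed by -0.16. Ppara, which encodes PPAR alpha, the fatty acid sensor of liver, heart and muscle, differed by 0.014 on its brightest probe set (7.75 on the RP58-/- array, 7.74 on the RP58+/+ array) and by 0.49 and 0.76 on the others. Averaging all probe sets of a gene, dim ones included, left Esrra at -0.19, Acacb at -0.37 and Ppargc1a at -0.53, inside the rule.

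Their partners and targets were mixed. Of 12 nuclear receptor and cofactor genes above the floor, Rxrg, the retinoid receptor of muscle, was lower (6.63 on the RP58-/- array, 7.90 on the RP58+/+ array, -1.27), Rxra, the form most abundant in liver, was higher (0.66, but 0.28 when its probe sets were averaged), and Lpin1 was at 0.51. Of 10 PPAR target genes, 2 were higher and 0 lower (median 0.33), with 7 above 0 and 3 below 0, down to -0.36. The 2 higher genes were Cyp4a14, a fatty acid hydroxylase of liver and kidney, at 1.05 and Angptl4, an inhibitor of lipoprotein lipase, at 0.85. Creb3l3, a liver transcription factor, was at 0.56. Angptl4 was at -0.0056 on its only probe set outside the _s_at, _x_at and _a_at kinds, so its difference depended on the probe set. Of 4 genes of carnitine supply, Bbox1, the last enzyme of carnitine synthesis in liver and kidney, was higher (1.02), and the carnitine carrier Slc25a20 was at -0.41 and Tmlhe at 0.08.

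Some members were also grouped, from general knowledge and with earlier results of these data known, into striated muscle forms and liver forms. These labels are not exclusive. Cd36 is also made by capillary endothelium, adipocytes and macrophages, Acsl6 by brain, and Ppara by heart and muscle. Ppargc1a was also counted as a brown adipocyte marker. The 7 striated muscle forms read had a median of -0.63, with 4 lower (Fabp3, Acacb, Cd36 and Ppargc1a) and 0 higher, while Slc27a1, Lpl and Acsl6 were above 0. When probe sets were averaged this median was -0.37, and Acacb and Ppargc1a were inside the rule. The 8 liver forms had a median of 0.50, with 3 higher (Slc27a2, Slc27a5 and Fabp1) and 0 lower, and Acsl5, Cpt1a, Acaa1a, Ehhadh and Ppara between 0.014 and 0.56. The ranges, -1.57 to 0.31 for the muscle forms and 0.014 to 1.18 for the liver forms, overlapped. Beside these stood the markers of the tissues themselves. The summed linear signal of 16 muscle fibre markers was 49198 on the RP58-/- array and 109588 on the RP58+/+ array, a ratio of 0.449, with Casq1 (-2.34), Eno3 and Myh8 (-1.94) in front. That of 18 hepatocyte markers was 161065 on the RP58-/- array and 105662 on the RP58+/+ array, a ratio of 1.52. All 18 were above 0, with Otc (1.35), Hpx (1.32) and Apoc1 (1.07) in front and no marker under the floor. Alb, the brightest, had 14.30 on the RP58-/- array and 14.23 on the RP58+/+ array (0.07). Afp had 14.01 on the RP58-/- array and 13.81 on the RP58+/+ array (0.20). Without Alb, the hepatocyte sums were 140899 on the RP58-/- array and 86420.5 on the RP58+/+ array. Without _s_at, _x_at and _a_at probe sets, Otc was at 0.34, inside the rule. Among other tissues that a dissection of the diaphragm could hold, 4 of 7 mesothelium markers (median 0.62; summed linear signal 11956 on the RP58-/- array and 7476 on the RP58+/+ array) and 3 of 5 lung epithelium markers above the floor (median 0.59; 3025 on the RP58-/- array and 550.0 on the RP58+/+ array) were higher. The lung sum was mostly that of the surfactant gene Sftpc (3.64, or 2.10 when its probe sets were averaged), and without it the sums were 511 on the RP58-/- array and 349 on the RP58+/+ array. Ager was at 1.24 and Aqp5 at 0.59, which either centring brought inside the rule. Of 7 brown adipocyte markers above the floor, Cox8b (-1.01), Cidea (-0.67) and the member Ppargc1a were lower (median -0.09; 1944 on the RP58-/- array and 3519 on the RP58+/+ array), and the 4 others, Ucp1, Prdm16, Elovl3 and Dio2, lay between -0.09 and 0.25. Without Cox8b, which is also a gene of oxidative phosphorylation, the sums were 466 on the RP58-/- array and 549 on the RP58+/+ array. None of 6 heart markers above the floor passed the rule, and Myh6, Nppa and Tnni3 lay under the floor. The part of any of these tissues in the members' differences was not tested.

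**Figure D3:**
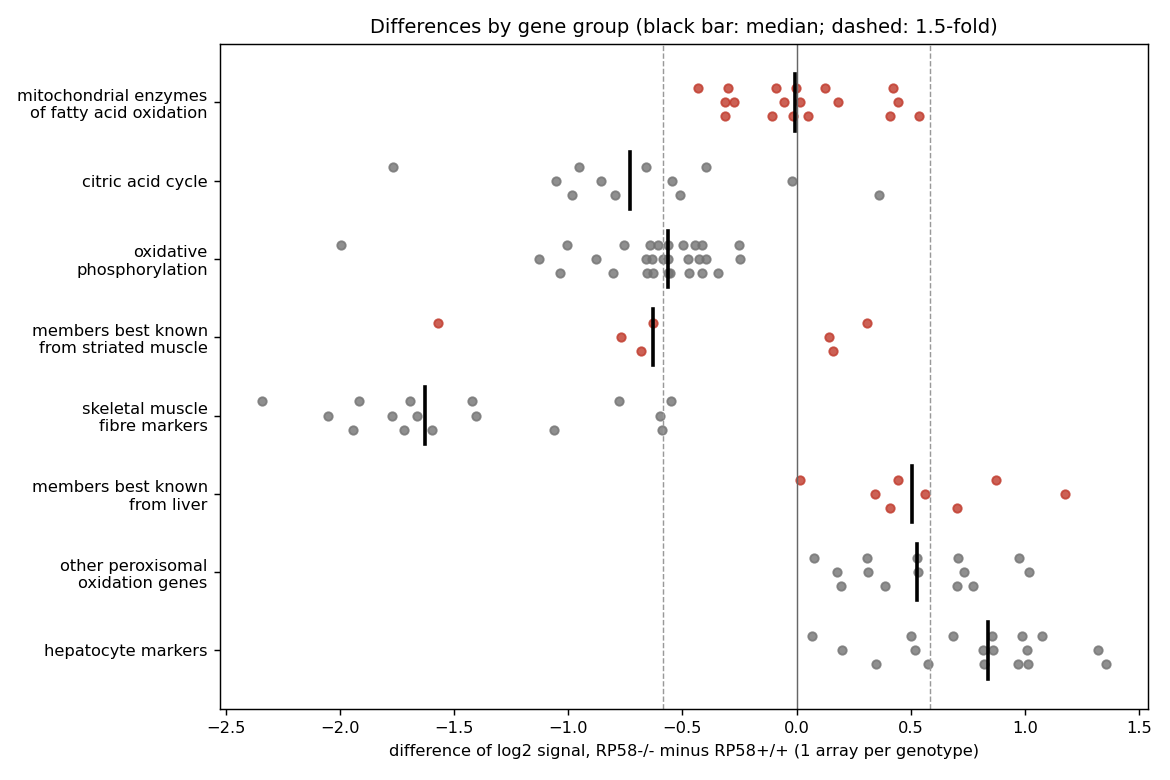
Difference of log2 signal, RP58-/- minus RP58+/+ (x axis), of each gene above the floor in 8 gene groups; red points are members, grey points other genes, black bars medians and dashed lines 1.5-fold. The mitochondrial enzymes of fatty acid oxidation centre on -0.0089, beside medians of -0.73 for the citric acid cycle and -0.56 for oxidative phosphorylation, and the liver forms (0.50) lie on the side of the hepatocyte markers (0.84).

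Neighbouring lipid pathways differed little as lists. Of 12 fatty acid synthesis genes 0 passed the rule (median -0.09), with Me1 (-0.29, but 0.22 without _s_at, _x_at and _a_at probe sets), Fasn (-0.23) and Acly (-0.22) in front. Of 14 genes of triglyceride storage and lipolysis, Plin4, a lipid droplet coat protein of fat and muscle, was lower (6.11 on the RP58-/- array, 7.12 on the RP58+/+ array, -1.01) and Agpat2, an acyltransferase of triglyceride synthesis, was higher (0.73). Of 10 further binding and transport genes, Fabp2 (-1.05, with a signal of 5.06 on the RP58-/- array) and Fabp7 (-0.70) were lower, and Fabp4, the adipocyte form also made by endothelium, was at -0.48, but at 0.22 without _s_at, _x_at and _a_at probe sets. Of 14 branched-chain and other acyl-CoA genes, Gcdh (0.89) and Acad11 (0.74) were higher and Acadsb was at 0.38. None of the 3 ketone body genes read passed the rule (Acat1 0.40, Bdh1 0.36, Oxct1 -0.27).

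**Figure D4:**
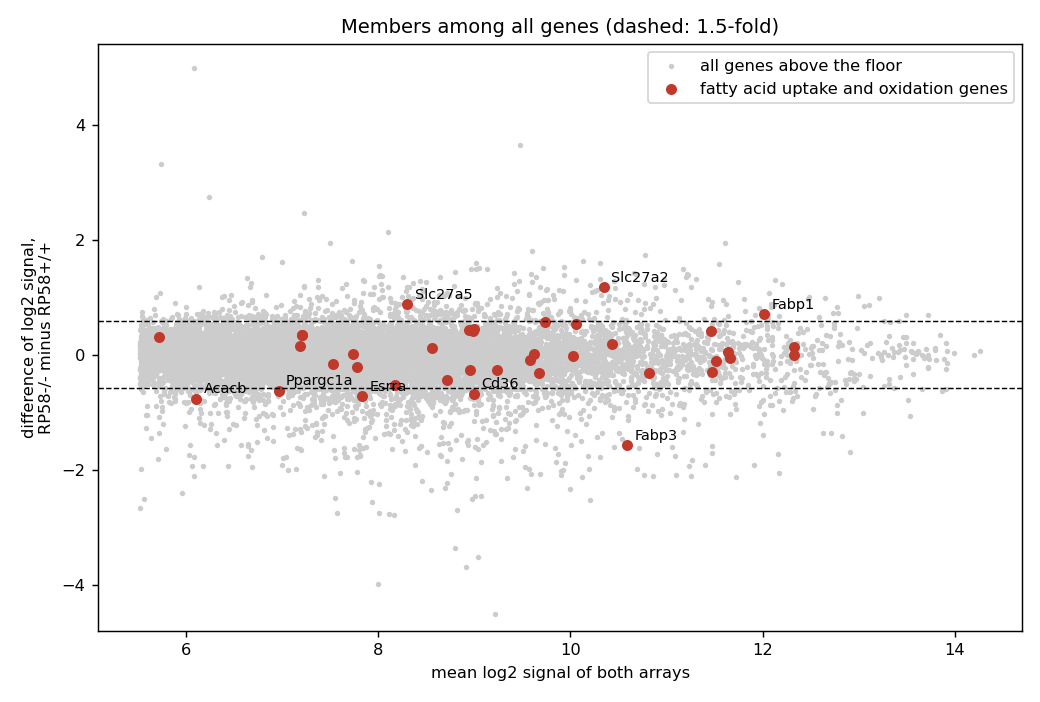
Difference of log2 signal, RP58-/- minus RP58+/+ (y axis), against the mean log2 signal of both arrays (x axis) for 14093 genes above the floor (grey) and the 38 members read (red), with dashed lines at 1.5-fold. The 8 named members lie outside the lines, 5 below and 3 above, and the other 30 lie between them.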

How the data were processed

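The authors applied RMA, per the series' design text, so the deposited values are log2 signals per probe set, normalised between arrays. The submitters' processing notes name Affymetrix Expression Console 1.1. RMA compresses differences of dim and very bright probe sets, removes differences in total mRNA and gives no detection call. Of 45101 probe sets, 34945 had 1 gene symbol in the platform annotation, 932 had several, 9160 had none here and 64 were controls. The members, the gene lists and the size rule were chosen with earlier results of these data known. All 40 members and up to 3 genes of each other list, those with the largest absolute difference above the floor, were named. Suclg2, Acaca, Alb, Afp and the brown adipocyte markers besides these were named after their values were seen. No test, resampling or set test was run, since each genotype had 1 array. The number of arrays limits the precision. The calculation was checked on simulated data (Python 3.11.15, pandas 2.3.3). The alternatives were the mean over probe sets, leaving out _s_at, _x_at and _a_at probe sets, a floor at the 60th percentile (the members' values used no floor, and one at the 40th percentile removed none of them), centring by median or loess (fraction 0.3, statsmodels 0.14.6), a 2-fold rule, and a rule at 0.73, the 95th percentile of the disagreement between the brightest probe sets of a gene.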

Additional observations from a re-analysis of the deposited data

How the results depend on the processing

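With 1 array per genotype, no difference has a replicate check, and signals near the floor limit what can be read for Acacb and Acsl6. No paired analysis was possible because each genotype had 1 array. The count of lower members was 5 as reported, 3 when a gene's probe sets were averaged, 1 under the 2-fold rule and 2 under a rule of 0.73, the 95th percentile of disagreement between probe sets. The count of higher members was 3 as reported, 4 when probe sets were averaged or centred by loess, 2 under the rule of 0.73 and 1 under the 2-fold rule. Averaging took Ppargc1a, Esrra and Acacb inside the rule and brought Cpt1a (0.63) and Acsl3 (-0.78) past it. Without _s_at, _x_at and _a_at probe sets, Ppargc1a (-0.51) was inside the rule, Crat (-0.82) and Acsl3 (-1.46) were past it, and Angptl4 was at -0.0056. The cause was not tested. All 8 members past the rule remained so under both centrings, and loess added Acsl5. The floor at the 60th percentile removed Acacb and Acsl6 and left 4 lower and 3 higher. The median of the striated muscle forms ran from -0.64 to -0.37 and that of the liver forms from 0.50 to 0.60. The median of the mitochondrial enzymes ran from -0.06 to 0.03 over the alternatives, which for the pathway medians were added after the data were seen, that of the citric acid cycle from -0.91 to -0.51 and that of oxidative phosphorylation from -0.60 to -0.53. Scaling to the poly-A controls would raise every difference by 0.75.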
